A study of Mus musculus with 2 samples.

Results

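The far part of long 3′ UTRs was examined in mouse embryonic stem cells, as the set of putative m6A positions lying more than 1000 nt past the first base of the stop codon. A member was a unique chromosome, position and strand from any of 17 deposited lists of called sites. It was counted as distal where it lay beyond this boundary in the coding transcript with the longest coding sequence that contains it, counted along the spliced transcript. Of 160430 unique positions, 155958 were placed on a coding transcript and 17136 of these were distal, or 11% of the placed positions (95% Wilson interval 10.8% to 11.1%). The distal positions lay in 3178 genes.

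N6-methyladenosine is laid down on nascent mRNA by a complex whose catalytic subunit is Mettl3, mostly in RRACH sequences (R, A or G; H, A, C or T). It is known to be dense around stop codons and in long last exons. In native RNA sequencing a molecule passes through the pore from its poly(A) tail, so reads begin at the tail and can stop before the 5′ end.

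Poly(A) RNA from mouse 129 embryonic stem cells was sequenced as native RNA on a nanopore device, with 1 wild-type (WT) library and 1 library of Mettl3 knockout (KO) cells, and no replicates. Both Mettl3 alleles of the KO cells lacked exons 5 to 7, with genes for resistance to puromycin and hygromycin in their place. Epinano, ELIGOS, m6Anet, MINES, Nanom6A, Tombo and xPore each gave a WT list and a KO list, while Nanocompore, DiffErr and DRUMMER each gave 1 list made by setting the libraries against each other, called a comparison list below. xPore models the libraries jointly and reports a modification rate for each, so its WT and KO lists are not separate calls as those of the other 6 tools are. The lists hold positions only, so the depth behind a site is unknown, although the study's methods set a minimum number of reads, and a position that is not listed cannot be told apart from one with too few reads. All intervals below are 95% intervals for counting error in these 2 libraries, which hold nothing of the spread between cultures.

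Mettl3 itself has only 173 nt after its stop codon and no distal position. Elsewhere in this gene, the replaced exons 5 to 7 held 2 positions listed in WT or the comparison and 0 in KO, and the other exons 11 and 5. Exons 1 to 4 also had positions in WT or the comparison and none in KO, and the 5 in KO lay in exons 8 to 11. All 9 markers of embryonic stem cells that were looked for had at least 1 listed position anywhere in the gene, with 244 positions in WT and 194 in KO. Of these markers, Sox2, Nanog, Esrrb and Tdgf1 had distal positions, 32 in WT and 26 in KO. Among 8 markers of fibroblast feeders, Col1a1, Thy1, Fn1 and Vim had listed positions (88 in WT, 62 in KO), while Col1a2, Col3a1, Pdgfra and Pdgfrb had none. Among 10 markers of differentiated cells, only Sox17 and Nes had any (15 in WT, 0 in KO). No feeder or differentiation marker had a distal position. Of the 6 with listed positions, Col1a1 and Thy1 alone have a coding transcript that reaches past the boundary, so the other 4 could hold none.

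The distal 3′ UTR made up similar shares of the WT and of the KO positions, and a much smaller share of the positions found by comparing the libraries. Pooled over tools, 12897 of 125569 placed WT positions were distal (10.3%, 10.1% to 10.4%), as were 10716 of 104790 KO positions (10.2%, 10% to 10.4%). The order of WT and KO depended on the counting. With 1 site per line the shares were 8.95% in WT (8.83% to 9.07%) and 9.45% in KO (9.30% to 9.59%), and without Tombo 9.84% in WT (9.65% to 10%) and 9.41% in KO (9.17% to 9.64%). Of the 3139 placed positions in a comparison list, 80 were distal (2.55%, 2.05% to 3.16%). Among all RRACH positions in the transcripts that carry a listed position, 20.2% lay beyond the boundary, so every group was less often distal than its sequence background. Of the 17136 distal positions, 6420 (37.5%) were listed in WT or the comparison and not in KO, 6477 (37.8%) in both WT and KO, and 4239 (24.7%) in KO alone.

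Within a tool, the distal share was higher in KO than in WT with intervals apart for Epinano and ELIGOS. For Tombo, MINES, Nanom6A and xPore it was higher with intervals that overlap, and the difference itself was not tested, and for m6Anet it was lower. Epinano had the widest gap, with 12.9% of its WT positions (12.6% to 13.3%) and 17.6% of its KO positions (17.0% to 18.2%) in the distal 3′ UTR. For ELIGOS the shares were 5.47% in WT and 7.52% in KO (6.28% to 8.97%), and for m6Anet 7.06% in WT and 6.77% in KO (6.36% to 7.21%). The comparison lists had the lowest shares of the 17. DRUMMER had 1.60% (1.04% to 2.45%), DiffErr 1.73% (1.21% to 2.46%) and Nanocompore 2.77% (2.15% to 3.57%). The change over the boundary itself was gradual. Positions 901 to 1000 nt past the stop codon numbered 1485 in WT, 1156 in KO and 17 in the comparison, and those 1001 to 1100 nt past it 1330, 1091 and 14.

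KO lists were shorter than WT lists, and by less in the distal 3′ UTR than closer to the stop codon in the same transcripts. Against all placed positions the distal 3′ UTR did not stand out when tools were pooled, with a ratio of KO to WT positions of 0.831 (0.810 to 0.853) in the distal 3′ UTR and 0.835 (0.828 to 0.841) overall. The ratio of KO to WT positions was set beside the same ratio in the proximal 3′ UTR, meaning the first 1000 nt after the stop codon of the same long transcripts. It was below 1 beyond the boundary for all 7 tools, and higher than in the proximal 3′ UTR for all 7, with intervals apart for each. With the boundary at 2000 nt it was also higher for all 7, and the intervals of MINES and xPore overlapped. For ELIGOS, 321 WT and 111 KO positions were distal, a ratio of 0.346 (0.276 to 0.430), against 0.155 (0.134 to 0.179) in the proximal 3′ UTR. For Epinano, with 5603 and 2575 distal positions, the ratio was 0.460 (0.438 to 0.482) against 0.283 (0.270 to 0.295).

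The remaining tools differed in level but shared this order against the proximal 3′ UTR. xPore listed 271 distal positions in WT and 134 in KO, a ratio of 0.494 (0.399 to 0.610), against 0.336 in the proximal 3′ UTR. m6Anet listed 1635 and 912, a ratio of 0.558 (0.514 to 0.605) against 0.419, and MINES 1140 and 831, a ratio of 0.729 (0.666 to 0.798) against 0.547. Tombo and Nanom6A had the distal ratios closest to 1, at 0.944 (0.913 to 0.975) for 7277 and 6867 positions and 0.899 (0.838 to 0.965) for 1668 and 1500. Their proximal ratios were 0.788 and 0.726. Over all placed positions the ratio was 0.252 (0.237 to 0.266) for ELIGOS and 0.338 (0.332 to 0.344) for Epinano, both below the distal interval. For the other tools it overlapped the distal interval, at 0.443 (0.422 to 0.466) for xPore, 0.703 for MINES, 0.828 (0.815 to 0.842) for Nanom6A and 0.905 (0.896 to 0.915) for Tombo. For m6Anet it was 0.581 (0.569 to 0.594), above the distal value. Whether the libraries differed in depth over the distal 3′ UTR was not tested, since the lists give no coverage.

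Followed along these long transcripts, the KO to WT ratio pooled over tools was higher in each bin up to the boundary and nearly level beyond it. It was 0.681 (0.655 to 0.709) within 200 nt of the stop codon, 0.716 between 200 and 400 nt and 0.797 between 400 and 1000 nt. Past the boundary it was 0.841 (0.808 to 0.875) up to 1500 nt, 0.837 up to 2000 nt, 0.832 up to 3000 nt and 0.787 (0.726 to 0.852) up to 5000 nt. The steepest course was that of ELIGOS, from 0.0927 (0.0695 to 0.121) within 200 nt to 0.311 (0.221 to 0.429) between 1000 and 1500 nt and 0.312 (0.179 to 0.523) between 2000 and 3000 nt. Between 3000 and 5000 nt it was 0.846 (0.343 to 2.05), from 13 WT and 11 KO positions. For m6Anet the ratio went from 0.344 (0.313 to 0.378) within 200 nt to 0.582 (0.519 to 0.653) between 1000 and 1500 nt. It was 0.486 (0.408 to 0.578) up to 2000 nt, 0.615 (0.507 to 0.745) up to 3000 nt and 0.532 (0.381 to 0.735) up to 5000 nt. Beyond 5000 nt it was 0.278 (0.0806 to 0.776), from 18 WT and 5 KO positions.

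Distal WT positions were also listed again in KO by the same tool more often than proximal ones, though for 4 of the 7 tools less often than all placed WT positions. For xPore, 87 of 271 distal WT positions were listed again (32.1%, 26.8% to 37.9%), against 15.4% (13.6% to 17.5%) in the proximal 3′ UTR. For Epinano the shares were 19.7% (18.7% to 20.8%) and 14.5% (13.8% to 15.2%), and for ELIGOS 13.1% (9.83% to 17.2%) and 7.46% (6.20% to 8.95%). For m6Anet they were 30.9% and 27.3%, and for Nanom6A 59.3% and 55.2%. The distal share was higher for all 7 tools, with intervals apart for 5, the exceptions being Tombo (54.7% and 53.4%) and MINES (36.3% and 33.1%). For these exceptions the order turned with the boundary at 2000 nt, to 50.4% (48.4% to 52.3%) beyond and 52.2% before it for Tombo and 31.0% (26.6% to 35.8%) and 32.0% for MINES. At that boundary the intervals were apart for Epinano and xPore alone. Over all placed WT positions the relisted share was 60.1% for Tombo, 40.5% for MINES, 64.9% for Nanom6A and 34.5% for m6Anet, each above the distal share. It was 24.8% for xPore, 16.6% for Epinano and 11.2% for ELIGOS, each below the distal share. As a share of the KO list the order was the opposite, since shared positions made up less of the distal than of the proximal KO positions for 6 of the 7 tools. The shares were 57.9% distal and 67.7% proximal for Tombo, 42.9% and 51.3% for Epinano and 37.8% and 48.2% for ELIGOS. The exception was xPore, with 64.9% and 45.9%.

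Pooled over tools, distal WT positions were listed again less often than proximal ones or all placed ones. Any KO list held 6477 of the 12897 distal WT positions (50.2%, 49.4% to 51.1%), fewer than in the proximal 3′ UTR (53.9%, 53.2% to 54.6%) and than among all placed WT positions, of which 59.3% were listed by some tool in KO.

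Comparison lists held few distal positions. Among all placed positions in a WT or comparison list, 2.50% were in a comparison list. In the distal 3′ UTR it was 80 of 12897 (0.620%, 0.499% to 0.771%) and in the proximal 3′ UTR 3.43% (3.19% to 3.69%). The 80 positions lay in 55 genes, with 58 in the Nanocompore list, 30 in that of DiffErr and 20 in that of DRUMMER. All 3 lists held 3 of them, 22 were in 2 lists and 55 in 1. Every one was also in a WT list of some tool, most often that of m6Anet (74 of 80, 92.5%), Tombo (70, 87.5%) and Nanom6A (69, 86.2%). A KO list held 55 of the 80 (68.8%, 57.9% to 77.8%), close to the 70.1% of proximal comparison positions. These came from Tombo (31), Nanom6A (27), m6Anet (16), xPore (16), MINES (4), Epinano (3) and ELIGOS (0), a position counting for each tool that listed it.

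Distal positions lay closer to the transcript end than the sequence would place them. The median distance to the annotated 3′ end was 616 nt in WT (601 to 633, quartiles 272 and 1272) and 628 nt in KO (608 to 646, quartiles 272 and 1274). It was 410 nt for the comparison lists (353 to 552, quartiles 196 and 872) and 1050 nt for the distal RRACH positions of the same transcripts. The intervals of WT and KO overlap. By tool, the WT median ran from 444 nt for xPore (382 to 519) and 468 nt for Nanom6A to 652 nt for MINES (602 to 706).

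Counted per 1000 distal RRACH positions, WT lists held 193 positions in the last 250 nt of the transcript, 192 between 250 and 500 nt from the end, 153 between 500 and 1000 nt, 105 between 1000 and 2000 nt and 59.1 farther away. In KO the same densities were 161, 155, 128, 90.6 and 47.3. Pooled over tools, the ratio of KO to WT differed little with the distance to the end, from 0.801 (0.744 to 0.862) to 0.861 (0.814 to 0.911). For Epinano it was 0.514 (0.470 to 0.562) in the last 250 nt and 0.401 (0.358 to 0.449) between 250 and 500 nt, with intervals apart. For each of the other tools the intervals of the bins overlapped. Comparison lists thinned out more steeply, from 1.62 per 1000 in the last 250 nt to 0.240 between 1000 and 2000 nt and 0.254 beyond. Only 13 of the 80 comparison positions lay at least 1000 nt from the end. The farthest, named here after its value was seen, was in Enah, a regulator of actin filaments, 7072 nt from the end and 2406 nt past the stop codon (chromosome 1, 181903456, minus strand). Tardbp, which encodes the RNA-binding protein TDP-43, held 3 of the 13, between 4686 and 4878 nt from the end, and Nudcd3 another 3, between 1079 and 1337 nt.

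The distal and the proximal 3′ UTR were also compared at the same distance to the end. This sets different transcripts against each other, since a proximal position near the end needs a 3′ UTR little over 1000 nt long. In the last 250 nt there were 1404 proximal and 15419 distal RRACH positions. Transcript abundance and 3′ UTR length were thus not matched. At the same distance, the WT density beyond the boundary over that before it was 0.577 (0.523 to 0.637) in the last 250 nt and 0.590 (0.552 to 0.631) between 250 and 500 nt. It was 0.468 (0.447 to 0.490) between 500 and 1000 nt, 0.314 (0.300 to 0.328) between 1000 and 2000 nt and 0.237 (0.224 to 0.250) farther away. In KO the same ratio was 0.607 (0.544 to 0.678), 0.581 (0.539 to 0.626), 0.485 (0.461 to 0.510), 0.371 (0.354 to 0.390) and 0.270 (0.254 to 0.288), in the same order. The WT and KO intervals overlapped up to 1000 nt from the end, with KO below WT between 250 and 500 nt. Beyond 1000 nt they were apart, with KO higher. For the comparison lists the ratio was 0.325 (0.137 to 0.890) in the last 250 nt, from 25 distal and 7 proximal positions, and 0.0200 (0.00728 to 0.0441) between 1000 and 2000 nt, from 6 and 293. The number of reads over these positions is not known, and its part in the difference was not tested.

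Over the whole 3′ UTR the distal density in WT was 0.420 times the proximal one (0.411 to 0.429), in KO 0.468 times (0.457 to 0.480) and in the comparison lists 0.0759 times (0.0595 to 0.0958). Among the pooled groups, positions listed in KO alone had the highest ratio, at 0.671 (0.643 to 0.700), and among the lists of single tools Epinano in KO, at 0.678 (0.641 to 0.716). Among WT lists the ratio was 0.417 for Epinano and 0.404 for Tombo, and 0.154 for ELIGOS and 0.139 for xPore. In the pooled WT, KO and comparison lists, positions became sparser with each bin away from the stop codon. Per 1000 RRACH positions, WT lists held 408 positions within 200 nt, 189 between 1000 and 1500 nt, 112 between 2000 and 3000 nt and 74.5 between 3000 and 5000 nt, and KO lists held 278, 159, 93.5 and 58.6. Comparison lists held 25.4, 1.43, 0.561 and 0.0541, the last of these a single position in Scd2, 3511 nt past the stop codon.

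Beyond 5000 nt lay 352 WT and 278 KO positions in 98 genes and no comparison position, a density of 37.2 in WT and 29.4 in KO. D10Wsu102e, whose function is not established, supplied a large part of them, with an annotated transcript that runs for 122585 nt past the stop codon. Without it the counts were 272 and 212 and the densities 34.0 and 26.5.

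GGACT, the best known sequence methylated by the Mettl3 complex, made up 11.7% of the distal WT positions (11.2% to 12.3%), 8.14% of the distal KO positions (7.63% to 8.67%) and 45.0% of the 80 comparison positions (34.6% to 55.9%). It made up 6.40% of the distal RRACH background. Distal positions in KO alone held 5.80% GGACT (5.14% to 6.55%), within error of that background. In the proximal 3′ UTR the shares were 12.7% in WT, 9.52% in KO and 38.9% (35.4% to 42.6%) in the comparison lists. By tool, GGACT made up 36.9% of the distal WT positions of xPore (31.4% to 42.8%) and 5.22% of its distal KO positions (2.55% to 10.4%). The shares were 26.2% and 4.50% for ELIGOS, 14.8% and 6.60% for Epinano and 14.6% and 5.67% for Nanom6A. m6Anet kept the highest share in KO, at 18% (15.6% to 20.6%) after 22.0% in WT.

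Counted as a ratio of KO to WT, distal GGACT positions had a lower value than the total of other distal positions for each of the 7 tools. For Tombo, 1169 GGACT positions in WT and 635 in KO gave a ratio of 0.543 (0.492 to 0.599), while its other distal positions had a ratio of 1.02 (0.985 to 1.06). For Nanom6A the ratios were 0.350 (0.270 to 0.450) and 0.993 (0.922 to 1.07). Without GGACT the total of distal positions was thus not lower in KO beyond counting error for either tool. Within that total some sequences fell and others rose. For Nanom6A, AGACT went from 124 in WT to 62 in KO and GGACA from 128 to 79. Its AAACA positions went from 346 to 405 and its AAACT positions from 213 to 271. For Tombo, AGACT went from 919 to 722 and AGACA from 1519 to 1653. For ELIGOS the ratios of GGACT and of the other distal positions were 0.0595 (0.0188 to 0.144) and 0.447 (0.352 to 0.565). For xPore they were 0.0700 (0.0274 to 0.150) and 0.743 (0.586 to 0.940). For m6Anet they were 0.456 (0.376 to 0.549) and 0.587 (0.535 to 0.643), the only tool of the 7 whose intervals overlapped.

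Other RRACH sequences had an order of their own. Pooled over tools, GGACA made up 12% of the distal positions in WT (11.5% to 12.6%) and 12.6% in KO (11.9% to 13.2%), 1.68 and 1.76 times its share of the background. The tools differed, with 1158 GGACA positions in WT and 1145 in KO for Tombo and 660 and 535 for MINES. The counts were 474 and 97 for Epinano, 206 and 70 for m6Anet, 128 and 79 for Nanom6A, 63 and 9 for ELIGOS and 39 and 20 for xPore. In the pooled lists AGACA made up 13.3% in WT and 16.2% in KO (15.5% to 16.9%), and 17.0% of the positions listed in both. AGACT had 9.92% in WT and 8.39% in KO. AAACA, the most frequent RRACH sequence in the distal background at 14.9%, made up 10.3% of the WT positions and no comparison position. In the comparison lists the next most frequent sequence after GGACT was GGACA, at 16 of 80 positions, followed by 13 positions in AGACT.

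Most distal positions were listed by few tools. Of the 12897 listed in WT or the comparison, 9414 had 1 tool, 3483 at least 2 (27.0%, 26.2% to 27.8%) and 967 at least 3 (7.50%, 7.06% to 7.97%) of the 10. In the proximal 3′ UTR 40.3% had at least 2 tools and 17.5% at least 3. At least 6 tools listed 89 distal positions (0.690%, 0.561% to 0.848%), against 3.39% of the proximal positions and 2.02% of all placed positions in a WT or comparison list. Without Tombo the count was 42. MINES takes the output of Tombo as its input, so these are not independent of each other in the counts of tools. GGACT made up 24.0% of the positions with at least 2 tools, 35.1% with at least 3 and 57.3% (46.9% to 67.1%) with at least 6. The median distance to the end was 536, 460 and 396 nt in the same order.

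Support in WT did not go with absence from KO. Among distal positions with 1 tool in WT or the comparison, 45.4% (44.4% to 46.4%) were also listed in KO, and among those with at least 6 tools 55 of 89 (61.8%, 51.4% to 71.2%). In the proximal 3′ UTR the same shares were 47.9% (47.1% to 48.8%) and 69.8% (66.3% to 73.0%). The largest number of tools that gave the same distal position in each library was 5, at 6 positions.

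Runs of at least 5 equal bases within 10 nt stood beside 10.2% of the WT positions (9.66% to 10.7%), 10.7% of the KO positions (10.1% to 11.3%) and 10.8% of the background, and beside 2 of the 80 comparison positions (2.50%, 0.688% to 8.66%), a share below that of the background. The similar totals of WT, KO and background hide unlike bases. Runs of A stood beside 5.26% of the WT positions (4.89% to 5.66%), 5.45% of the KO positions (5.04% to 5.90%) and 6.55% of the background. Runs of T stood beside 3.14% (2.85% to 3.46%), 3.43% (3.11% to 3.80%) and 2.79%. In the proximal 3′ UTR the shares were 8.33% in WT and 9.05% in KO. By tool, such runs were beside 11.2% of the distal WT positions of Epinano and 14.1% of its KO positions (12.8% to 15.5%). ELIGOS had 10.3% in WT and 17.1% in KO (11.2% to 25.2%), and m6Anet 6.54% and 6.69%.

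Known 3′ UTR motifs were read on the sense strand within 50 nt on either side. ATTTA, the core of AU-rich elements, lay near 14.5% of the WT positions (13.9% to 15.2%), 15.1% of the KO positions, 15.0% of the comparison positions (8.79% to 24.4%) and 14.4% of the background. TGTANATA, the motif bound by Pumilio proteins, lay near 1.95% of the WT positions (1.73% to 2.21%), 2.03% of the KO positions (1.78% to 2.31%), 0 of 80 comparison positions and 1.71% of the background. AATAAA, the canonical polyadenylation signal, lay near 11.5% of the WT positions (11% to 12.1%), 12% of the KO positions (11.4% to 12.6%) and 9.62% of the background. Outside the last 100 nt of the transcript WT, KO and background did not differ beyond counting error, at 6.59% in WT (6.16% to 7.06%), 6.83% in KO and 6.73% in the background. Within the last 100 nt it was 58.0% in WT (55.3% to 60.8%), 57.4% in KO and 51.5% in the background. Nanom6A and Epinano had AATAAA near 19.2% and 17.9% of their distal KO positions, and Tombo near 8.53%.

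Nearly all distal positions lay in the last exon, as the RRACH background did, with 12872 of 12897 in WT (99.8%), 10698 of 10716 in KO and all 80 in the comparison lists. The 29 positions outside it were in Gm38394 (22), Gm49322, Lpar2, Marveld1 and Nxf1, genes named here after their values were seen. The median distance to the nearest exon junction was 1868 nt in WT (1848 to 1887), 1879 nt in KO (1860 to 1902), 1680 nt in the comparison lists and 2362 nt in the background.

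The boundary depends on which transcript is taken. Of the 17136 distal positions, 16643 (97.1%) lay beyond 1000 nt in every coding transcript that contains them, and 130 lay in exons of more than 1 coding gene. The comparison lists were touched more, since 15 of their 80 distal positions (18.8%) lay nearer to a stop codon in another coding transcript, against 3.14% in WT and 2.81% in KO. The genes that the lists themselves named included the gene used here for 99.0% of the distal positions.

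Distal positions were spread over many genes. Of 10251 genes with a coding transcript reaching over 1000 nt past the stop codon, 3178 (31.0%) had a distal position, with a median of 4 and at least 10 in 503 genes. These 10251 include genes with no listed position. Of the 5169 reaching transcripts that carry a listed position, 62.9% had a distal one. WT and KO both had distal positions in 2133 genes, 518 had them in WT or the comparison and not in KO, and 527 in KO alone. Over all 3178 genes, 1604 had fewer distal positions in KO than in WT and 1025 had more. The 10 genes with the most distal positions held 400, or 2.33% of all.

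Of these 10, Eif4ebp2, which encodes a translational repressor that binds the cap-binding protein eIF4E, had 32 distal positions, 27 in WT, 23 in KO and 1 in the comparison. Larp1, which binds mRNAs of the translation machinery, had 29, with 25 in WT and 18 in KO, and the tools differed, with 14 and 14 for Tombo, 12 and 1 for m6Anet and 6 and 0 for ELIGOS. Trim25, a ubiquitin ligase of antiviral signalling, had 30, with 29 in WT and 19 in KO, of which Tombo listed 24 and 18. Mlec, a lectin of the endoplasmic reticulum, had 31, with 28 in WT and 18 in KO. Scd2, a fatty acid desaturase, had 27 in WT and 22 of the same positions in KO, and Rmnd5a, part of a ubiquitin ligase complex, had 22 in WT and 20 in KO, with 21 of its 27 positions distal in every coding transcript. In each of these 6 genes the KO count was below the WT count, and the interval of each ratio included 1. That interval takes WT and KO as separate counts, although many positions were in both. Positions not in KO and in KO alone numbered 11 and 1 in Trim25, 13 and 3 in Mlec and 11 and 4 in Larp1. They numbered 9 and 5 in Eif4ebp2, 7 and 5 in Rmnd5a and 5 and 0 in Scd2.

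Slc38a6, an amino acid transporter of the sodium-coupled family, went the other way. It had 31 distal positions, 7 in WT and all 31 in KO, a ratio of 4.43 (1.91 to 11.9). Nanom6A listed 7 of them in WT and 30 in KO, Epinano listed 1 in KO, and no other tool listed any. For D10Wsu102e and Gm38394 the lists named another gene. D10Wsu102e had 92 distal positions, 86 in WT and 76 in KO, of which Nanom6A listed 80 and 66, and the lists named RP24-227O16.1 for 81 of them. Olfr1459, a gene of the olfactory receptor family, had 54 over 7715 nt past its stop codon, 49 in WT and 35 in KO, with Tombo listing 30 and 25 and Epinano 23 and 6. The 47 positions of Gm38394 all lay in exons shared with Zc3h11a, the gene that the lists named for each of them, and 5 of the 47 were distal in every coding transcript.

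Genes with the most distal positions in the comparison lists were led by Aars, the alanyl-tRNA synthetase, with 8. It had 20 distal positions, 19 in WT and 16 in KO, between 1179 and 2385 nt past its stop codon (chromosome 8, 111056381 to 111057587, plus strand). All 20 also lay in exons of Exosc6, a subunit of the RNA exosome, and none was distal in every coding transcript. The lists named Exosc6 for all 20 and Aars for 17. Amd1, which makes the precursor for polyamines, had 3 comparison positions among 8 in WT and 7 in KO. Nudcd3, a partner of dynein, had 3 among 14 in WT and 9 in KO, and Scd2 had 3. Slc2a3, a glucose transporter, had 3, and all 11 of its distal positions were listed in both WT and KO. Tardbp had 3 among 13 in WT and 14 in KO, with 6 of its 15 positions distal in every coding transcript. Actr1a, a subunit of dynactin, had 2, as did Chmp7 of the ESCRT-III complex, the RNA helicase Ddx21 and Cog8 of the Golgi tethering complex. For Cog8, 15 of 16 distal positions were in exons shared with Pdf, a mitochondrial peptide deformylase, and none was distal in every coding transcript. The lists named Pdf for 15 of these positions and Cog8 for 5.

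Enzymes and binding proteins of m6A carried distal positions in 9 of the 13 members that reach past the boundary (69.2%, beside 31.0% over all genes that reach past it). Among reaching transcripts with a listed position the share was 62.9%, while members of the gene groups were not required to have one. The m6A proteins had 65 distal positions in WT and 42 in KO, a ratio of 0.646 (0.428 to 0.967), beside 0.831 (0.810 to 0.853) over all genes. Igf2bp1, a reader that stabilises mRNA, had 19 in WT and 7 in KO, with 14 of its 21 positions absent from KO. The demethylase Alkbh5 had 13 in WT and 8 in KO. Cbll1, of the writer complex, and the reader Ythdf3 each had 8 in WT and 8 in KO. No distal position was listed in Mettl14, Wtap, Rbm15b or Ythdf2.

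Among pluripotency factors, 10 of 11 members reaching past the boundary had distal positions. This was 90.9%, beside 31.0% over all genes and 62.9% of reaching transcripts with a listed position. They held 61 in WT and 46 in KO (0.754, 0.503 to 1.12). Esrrb, an orphan nuclear receptor of naive cells, led with 23 in WT, 18 in KO and 1 in the comparison. Of its 24 distal positions, 8 were listed by at least 3 tools in WT or the comparison, and the position with most support, GGACA at 86521226 on the plus strand of chromosome 12, by 8 tools in WT or the comparison and by Tombo in KO. Tfcp2l1 had 11 in WT and 2 in KO, Tbx3 5 and 1, Klf5 3 and 0, and Nanog 4 and 4. Nr5a2 had 11 in WT and 14 in KO, and Tet2, a DNA demethylation enzyme, 0 and 5.

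Proteins that bind 3′ UTRs had distal positions in 14 of 18 members reaching past the boundary. This was 77.8%, beside 31.0% over all genes and 62.9% of reaching transcripts with a listed position. They held 62 in WT and 38 in KO (0.613, 0.398 to 0.933). Of the 14, 11 had fewer in KO and 2 more, beside 1604 and 1025 of all 3178 genes. Celf1 had 9 in WT and 7 in KO, Pum2 11 and 8, and Qk 6 and 8. In the microRNA machinery 5 of 12 such members had distal positions, with 34 in WT and 22 in KO (0.647, 0.361 to 1.14). That share of 41.7% lay between the 31.0% of all genes and the 62.9% of reaching transcripts with a listed position. Nearly all distal positions of the microRNA machinery were in the Argonaute genes Ago2, with 18 in WT and 12 in KO over 11066 nt past the stop codon, and Ago1, with 14 and 6. Deadenylation factors had 53 in WT and 40 in KO (0.755, 0.488 to 1.16) in 7 of 12 members (58.3%, beside the same 31.0% and 62.9%). Among them were the deadenylases Cnot6 (12 and 6) and Cnot6l (6 and 5) and the antiproliferative factor Btg2 (13 and 11).

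Cleavage and polyadenylation factors had 35 in WT and 32 in KO (0.914, 0.548 to 1.52) in 10 of 13 members. This was 76.9%, beside 31.0% over all genes and 62.9% of reaching transcripts with a listed position. Of the 10, 5 had more in KO and 2 fewer, beside 1025 and 1604 of all 3178 genes. More and fewer were 1 and 6 members for the m6A proteins, 2 and 6 for the pluripotency factors, 0 and 5 for the deadenylation factors and 2 and 2 for the microRNA machinery. Cpsf6, of cleavage factor I, had 12 in WT and 2 in KO, Cpsf7 of the same complex 8 and 8, and Fip1l1 2 and 4. These gene counts are small, and the intervals of all 6 groups of genes with distal positions include the ratio of all genes, 0.831.

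The positions listed by most of the 10 tools in WT or the comparison and by no tool in KO are shown to let the sequence be read beside its support. Each run is 21 nt of the spliced transcript in the sense direction on GRCm38, 5′ to 3′, with the 5-mer centred on the listed base in capitals and start and end counted from 1. All 10 lie in the last exon. In Aars, position 111057482 on the plus strand of chromosome 8 (exon 21) was listed by all 10 tools, 2280 nt past the stop codon and 182 nt from the end. Position 111057543, farther downstream, was listed by 9. Counted in Exosc6, these positions lie 292 and 353 nt past the stop codon, and both have AATAAA within 50 nt. In none of the 10 was there a run of at least 5 equal bases within 10 nt.
Aars, 111057472 to 111057492: taggagatGGACCcagtgcag
Aars, 111057533 to 111057553: gagaggatGGACCaggggact
The next 3 were listed by 8 tools each. That of Nudcd3 lies 1477 nt past the stop codon and 1079 nt from the end (chromosome 11, minus strand, exon 6). That of Sfxn1, a mitochondrial serine transporter, lies 1211 nt past it (chromosome 13, plus strand, exon 11). That of Tmbim6, an inhibitor of cell death in the endoplasmic reticulum, lies 1121 nt past it (chromosome 15, plus strand, exon 10).
Nudcd3, 6106760 to 6106780: atgtgattGGACAttggtcat
Sfxn1, 54107802 to 54107822: tgcttaaaGGACActttcaga
Tmbim6, 99409607 to 99409627: gtcccatgAGACTgtactgga
A further 5 were listed by 7 tools each, in Eif4ebp2 (chromosome 10, minus strand, 1799 nt past the stop codon), Larp1 (chromosome 11, plus strand, 1245 nt) and the translation initiation factor Eif5 (chromosome 12, plus strand, 1241 nt). The last 2 were in Chmp7 (chromosome 14, minus strand, 1005 nt) and the choline transporter Slc44a1 (chromosome 4, plus strand, 2149 nt). The Eif4ebp2 position lies 3509 nt from the end.
Eif4ebp2, 61431990 to 61432010: caaagaagGGACAtcttcaga
Larp1, 58059998 to 58060018: tttgcttcAGACTgttgtaaa
Eif5, 111545847 to 111545867: agagccttGGACTtcagacac
Chmp7, 69717235 to 69717255: tggagaagAGACAtgacagcc
Slc44a1, 53567557 to 53567577: gtgatgatGGACTtgcacttg

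Distal positions listed in both libraries by most tools are shown as the counterpart, with the 5-mer again in capitals. In all, 6 distal positions were listed by 5 tools that gave them in WT and again in KO, and the first 5 in genomic order are shown. Of the 6, 4 are GGACA, that in Calu is AGACT, and the one not shown, in Iqgap1 at 80711657 on chromosome 7 and named after its value was seen, is GGACT. Mpzl1 encodes a cell surface protein (chromosome 1, minus strand, exon 6, 1013 nt past the stop codon), and Set an inhibitor of protein phosphatase 2A (chromosome 2, plus strand, exon 8, 1442 nt). Ubqln4 is a ubiquilin (chromosome 3, plus strand, exon 11, 1395 nt), Add1 an adducin of the membrane skeleton (chromosome 5, plus strand, exon 15, 1417 nt) and Calu a calcium-binding protein of the secretory pathway (chromosome 6, plus strand, exon 7, 1558 nt). Tombo, MINES and Nanom6A were among the 5 tools at each of those shown, and ELIGOS at Ubqln4 alone, which has a run of 5 equal bases within 10 nt.
Mpzl1, 165592555 to 165592575: tgctcgcaGGACAgtgtgcag
Set, 30072372 to 30072392: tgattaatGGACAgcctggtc
Ubqln4, 88569616 to 88569636: taggtgggGGACAgtcccaga
Add1, 34632221 to 34632241: gacttggaGGACAggtcctgt
Calu, 29376049 to 29376069: ctgaacctAGACTtccctttg

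The positions farthest from the stop codon with at least 3 tools in WT or the comparison mark how far sites with that many tools reach, with the 5-mer in capitals. Those of Olfr1459 (chromosome 19, minus strand, exon 3) lie 7454 and 6450 nt past the stop codon. That of Ago2, the slicing Argonaute protein (chromosome 15, minus strand, exon 19), lies 6774 nt past it and 4292 nt from the end. That of Chic1 lies 6429 nt past it (chromosome X, plus strand, exon 6), and that of Tead1, a transcription factor of the Hippo pathway, 6180 nt (chromosome 7, plus strand, exon 14). Tombo and Epinano listed all 5 in WT, with MINES or Nanom6A as the third tool. MINES uses the output of Tombo and Nanom6A the signal that Tombo assigned to bases, so the third tool was not independent of Tombo. The first in Olfr1459 and that in Ago2 were listed by 2 tools in KO, the second in Olfr1459 and that in Chic1 by 1, and that in Tead1 by 0.
Olfr1459, 13138272 to 13138292: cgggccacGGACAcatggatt
Ago2, 73100126 to 73100146: acatatggGGACAgaaattgg
Olfr1459, 13139276 to 13139296: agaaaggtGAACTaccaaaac
Chic1, 103395927 to 103395947: ggagtccaGGACTgactctcc
Tead1, 112904828 to 112904848: attttcaaGGACAttctagcc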

How the data were processed

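The authors basecalled and aligned native RNA reads of 1 WT and 1 KO library, ran 10 tools and deposited 17 lists on mm10, the same build as GRCm38. The deposited lists hold positions only, with no score, rate, read number or coverage. The study's methods chose a score threshold for each tool by its F1 score against miCLIP and miCLIP2 sites, among sites with a minimum read number, and whether the deposited lists hold exactly the sites past it is not stated there. Depth per site is therefore unknown. Groups were taken from the labels.

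Here, unique positions were placed with GENCODE M21, a later release than the authors used, on coding transcripts with a stop codon, and sequence was read from GRCm38.p6. The transcript with the longest coding sequence was taken, ties going to the longer transcript. The proximal 3′ UTR was 1 to 1000 nt past the first base of the stop codon in transcripts reaching farther. The background was every RRACH position of transcripts that hold a listed position, with or without reads. Shares have Wilson intervals, KO to WT ratios an interval from the exact binomial interval of KO among both lists, and medians an interval from order statistics, all at 95%. The ratio interval takes WT and KO as separate counts, although they share positions. No p-value was computed, since there is 1 library per condition and positions are not replicates. Placement and intervals were tested on simulated data. Python 3.11.15, numpy 2.4.6 and scipy 1.17.1 were used.

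The members and gene lists were chosen with earlier results of these data known. Named were the 10 genes with most distal positions, the 10 with most in comparison lists, up to 3 members of each of 8 gene lists with most distal positions, and Mettl3. Named positions were the 10 with most tools and none in KO, the 5 listed in both libraries by most tools, and the 5 farthest from the stop codon with at least 3 tools. Other list members were named after their values were seen. Alternatives were boundaries of 500 and 2000 nt, the longest transcript, distal in every coding transcript, 1 site per line, matching within 5 bp, RRACH only, without Tombo, without shared exons, without the 10 genes with most distal positions, and another background. Positions distal in a transcript named by the lists, and the pooled ratio and relisted share, were added after seeing the data. Other data of the study were not analysed here.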

Additional observations from a re-analysis of the deposited data

How the results depend on the processing

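The comparison lists had the lowest distal share under each alternative run for it, while the WT share was below the KO share with 1 site per line. The KO to WT ratio was higher beyond the boundary than before it for all 7 tools under 8 alternatives, with intervals apart for 7 tools except at the 2000 nt boundary, where this held for 5, not for MINES and xPore. The share of WT positions listed again in KO was higher beyond the boundary for 7 tools, and for 5 at 2000 nt, where Tombo and MINES turned and intervals were apart for Epinano and xPore alone. For Nanom6A the intervals of this share also overlapped with RRACH only (55.5% to 60.4% beyond, 53.7% to 56.5% before). They did so too without the 10 genes with most distal positions (55.7% to 60.6% and 53.9% to 56.6%). At 500 nt those of Tombo and MINES were apart. Of 112 values per tool under the alternatives, 105 stayed within the interval of the main value, and 7 moved out of it, all of them at the other boundaries. The cause of the shifts below was not tested where the alternative's construction does not give it.

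At 500 nt there were 30585 positions in 5243 genes, 275 with at least 6 tools, and at 2000 nt 6179 in 1284, 23 with at least 6 tools. Shares of placed positions were then 18.9% and 3.61% in WT, 18.6% and 3.53% in KO and 8.86% and 0.478% in the comparison lists. Median distances to the end were 637 and 597 nt in WT, and at 2000 nt 606 nt in KO and 240 nt in the comparison lists. At 2000 nt the density ratio was 0.440 in WT and 0.0565 in the comparison lists, and the pooled relisted share was 53.1% at 500 nt and 45.3% at 2000 nt.

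Counting 1 site per line gave 33967 sites, shares of 8.95% in WT and 9.45% in KO, and a pooled KO to WT ratio of 0.724. Without Tombo there were 11031 positions, 42 with at least 6 tools, shares of 9.84% and 9.41%, medians of 574 and 554 nt, density ratios of 0.376 and 0.422, and 13.3% GGACT in WT. With the longest transcript the shares were 10.7% in WT, 10.6% in KO and 3.35% in the comparison lists, and the WT median was 638 nt. Positions distal in every coding transcript gave shares of 9.95% and 9.94%, and 65 positions with at least 6 tools. Without the 10 genes with most distal positions the shares were 10% and 9.99%, and the WT median was 600 nt. With the transcripts that the lists name, an alternative chosen after seeing the data, the shares were 9.73% and 9.48%.

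Without coverage, fewer listed positions far from the stop codon or the end cannot be told apart from fewer reads there, and no alternative that needs a score or a depth was run.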
